A study of Mus musculus with 4 samples.

Results

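Dendritic cells (DCs) of the small intestinal lamina propria were examined in single-cell RNA-Seq libraries from WT and A20ZF7 mice. A20, encoded by *Tnfaip3*, restrains NF-κB signaling, and A20ZF7 mice carry a knock-in that abrogates binding of A20 to linear (M1) ubiquitin through its ZF7 motif. Each genotype was 1 library, made with a 5′ kit from lamina propria cells of 2 mice, 12 weeks of age, that were pooled after each mouse had received its own hashtag antibody and after negative selection to enrich T cells and ILCs. Of each genotype 60000 cells were collected. The matrices held 576003 barcodes with 35289432 UMIs (unique molecular identifiers) for WT and 612069 barcodes with 54587004 UMIs for A20ZF7.

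DCs were the barcodes that passed a rule on marker UMIs, and 124 of 60396 filtered barcodes did so. The WT library gave 44 of 22148 and the A20ZF7 library 80 of 38248. A filtered barcode had at least 500 UMIs, 200 to 2500 genes and at most 15% mitochondrial UMIs. A DC barcode had, in addition, at least 10 UMIs of *H2-Aa*, *H2-Ab1* and *Cd74* (MHC class II) and at least 1 UMI of *Flt3*, *Zbtb46*, *Xcr1*, *Itgax*, *Ccr7* and *Clec9a*. It had at most 4 UMIs of the macrophage genes *C1qa*, *C1qb*, *C1qc*, *Csf1r* and *Lyz2*, none of *Cd79a*, *Cd79b* and *Ms4a1*, at most 1 UMI of T cell receptor complex genes and at most 1 of *Col1a1*, *Col3a1*, *Dcn* and *Des*. With 1 library per genotype there were no replicates and no test between genotypes, and ranges after a value are 95% intervals for the error of counting alone.

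DCs take up antigen and present it to T cells, and the gut holds several kinds. Conventional type 1 DCs (cDC1s) express *Xcr1*, *Clec9a* and *Batf3* and cross-present antigen on MHC class I, while type 2 DCs (cDC2s) depend in part on *Irf4* and prime helper T cells. Plasmacytoid DCs (pDCs) depend on *Tcf4*, carry Siglec-H and BST2 on the surface and are known for type I interferon secretion. CCR7 guides mature DCs to the draining lymph node.

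The median DC barcode held 1894.5 UMIs and 975 genes in WT and 1569.5 UMIs and 863 genes in A20ZF7, with ranges of 618–5380 and 560–3507 UMIs. Summed over the gate, 93627 and 129178 UMIs were counted. A count of 3 UMIs, the floor used where a gene was not detected, corresponded to 32.1 CPM (counts per 1000000 UMIs of the gate) in WT and 23.7 CPM in A20ZF7. Of the filtered barcode sequences, 1196 occurred in both libraries, but no DC barcode was a DC in both.

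Many barcodes lay close to the limits. In WT, 2 barcodes had 10 or 11 class II UMIs and 5 more had 8 or 9, and in A20ZF7 these were 7 and 13. A single UMI of the DC genes admitted 25 of the WT and 31 of the A20ZF7 barcodes. With no such UMI, 274 WT and 142 A20ZF7 barcodes met every other limit. The gate thus holds many barcodes that 1 UMI more or less would move across a limit.

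Leading genes outside the rule included myeloid and antigen-presentation genes. *Flt3*, the DC growth factor receptor, is not among them, since the rule used it, and its level follows in part from the selection. It was counted at 150 CPM in WT DCs and 253 CPM in those of A20ZF7, against 10.4 and 2.86 CPM in barcodes gated as macrophages. Of genes the rule did not use, the 15 with the highest ratio of DCs to all other filtered barcodes were *Tnni2*, *Kynu*, *Wdfy4*, *Apol7c*, *Napsa*, *Tbc1d8*, *Alox5ap*, *Spi1*, *Csf2rb*, *Dnase1l3*, *H2-Eb1*, *Plbd1*, *Il1b*, *Cd86* and *Mpeg1*. Among them, *Spi1* (PU.1) is a myeloid transcription factor, *Csf2rb* is a receptor chain for GM-CSF, and *Wdfy4* is needed for cross-presentation. *Wdfy4* was at 118 CPM in WT DCs and 2.82 CPM elsewhere, and at 403 and 4.81 CPM in A20ZF7. The rule chose the barcodes on related genes, so these levels describe the gate. Macrophages share part of them, with *H2-Eb1* at 3758 and 3219 CPM there and 2111 and 3727 CPM in DCs. *Cd86* was at 322 and 389 CPM in macrophages and 182 and 340 CPM in DCs. Nor are they common to the gate. In WT barcodes of the pDC-like cluster described below, *Spi1*, *Il1b*, *Cd86* and *Apol7c* had 0 UMIs, while *Mpeg1* had 62 and *Alox5ap* 29.

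Markers of other cells were summed over the gate. The macrophage list of 16 genes summed to 675 CPM in WT and 742 CPM in A20ZF7, against 21799 and 16871 CPM in the macrophage gate. Its most abundant gene was *Apoe*, and 6 of its genes in WT and 2 in A20ZF7 were at 0. The rule capped 5 of the 16 in DCs and required them in the macrophage gate, so this contrast describes the selection. Innate lymphocyte genes, a list of 24, summed to 1222 CPM (1008–1468) in WT and 1927 CPM (1692–2184) in A20ZF7, with *Rora* the most abundant, against 8949 and 10429 CPM in the ILC gate. T cell genes, a list of 17, summed to 868 CPM in WT and 900 CPM in A20ZF7, against 5282 and 6773 CPM in the T cell gate, and the rule capped receptor complex genes of this list too. B cell genes summed to 1725 and 545 CPM in DCs, against 1578 and 1981 CPM in the B cell gate, where the rule allowed no UMI of *Cd79a*, *Cd79b* and *Ms4a1* in DCs and the B cell gate required them. Their most abundant gene in DCs was *Ly6d* (1265 and 300 CPM), which pDCs also express. Monocyte and neutrophil genes summed to 1736 and 1374 CPM, against 930 and 853 CPM in the macrophage gate, with *Plac8* (1404 and 1192 CPM) the most abundant. At least 3 UMIs of the B cell list were present in 19 WT and 8 A20ZF7 barcodes, and of the monocyte and neutrophil list in 24 and 26. In barcodes of 10 to 100 UMIs, which hold mostly free RNA, *H2-Aa* was at 214 and 222 CPM, *Siglech* at 4.22 and 2.08 CPM and *Il1b* at 13.2 and 39.4 CPM, all below their levels in DCs, which for *H2-Aa* the rule fixed. Of the barcodes, 7 in WT and 11 in A20ZF7 had 2 or more UMIs of ILC marker genes.

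In WT, 4 of the 44 barcodes went against the label. Of these, 2 had at least 100 UMIs of immunoglobulin genes and 2 had at least 100 UMIs of an epithelial list, and A20ZF7 had none of either. They set the summed WT levels of plasma cell genes (40765 CPM with them and 1687 CPM without) and epithelial genes (6933 and 279 CPM). Stromal genes summed to 761 CPM in WT and 324 CPM in A20ZF7, against 28220 and 21409 CPM in the stromal gate. A single WT barcode of the pDC-like cluster held 46 of the 71 stromal UMIs of the WT gate. It is not among the 4 and was kept. WT barcodes could be assigned to mice, and 13 of the 44 carried both hashtags, against 3680 of all 22148 filtered WT barcodes.

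DCs made up a similar share of the filtered barcodes in both libraries. The share was 0.199% (0.144–0.267) in WT and 0.209% (0.166–0.260) in A20ZF7, a ratio of 1.05 (0.720–1.56). Within WT, mouse 1 gave 15 of 6519 barcodes (0.230%, 0.129–0.379) and mouse 2 gave 13 of 4920 (0.264%, 0.141–0.451), so the genotypes differed by less than the mice did. Selection for T cells and ILCs acts on every such share. Among barcodes without UMIs of the T cell, ILC and B cell gate genes, DCs were 26 of 8143 in WT (0.319%, 0.209–0.467) and 44 of 8149 in A20ZF7 (0.540%, 0.393–0.724), and the ratio became 1.69 (1.02–2.86).

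Clustering of the 124 barcodes gave 3 clusters. The first was pDC-like, with *Ly6d*, *Klk1*, *Cox6a2*, *Siglech* and *Blnk* among its leading genes. Once the 4 WT barcodes described above were left out, *Siglech* had 72 UMIs in this cluster and 1 outside it, and *Klk1*, *Cox6a2* and *Ly6d* had none outside it. The second was cDC1-like, led by *Ctla2b*, *Xcr1*, *Ccser1*, *Tlr3* and *Cyp26b1*. TLR3 senses double-stranded RNA, and *Xcr1* encodes the receptor for XCL1. The third cluster was led by *Il1r2*, *Ifitm1*, *Il1b*, *S100a4* and *Fabp5*, and had mean log2 folds of 0.90 for the cDC2 list and 0.99 for the mature DC list over the other clusters, below the limit of 1 set for a name. It was left unnamed. Of its barcodes 81.0% were of A20ZF7, against 37.2% of the pDC-like and 73.9% of the cDC1-like cluster. The libraries were clustered without integration, and *Ifitm1* had no UMI in WT DCs. A trait of the A20ZF7 library and a trait of a DC type cannot be told apart in this cluster. Since the barcodes were clustered on these genes, the levels define the clusters and are not findings.

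**Figure D1:**
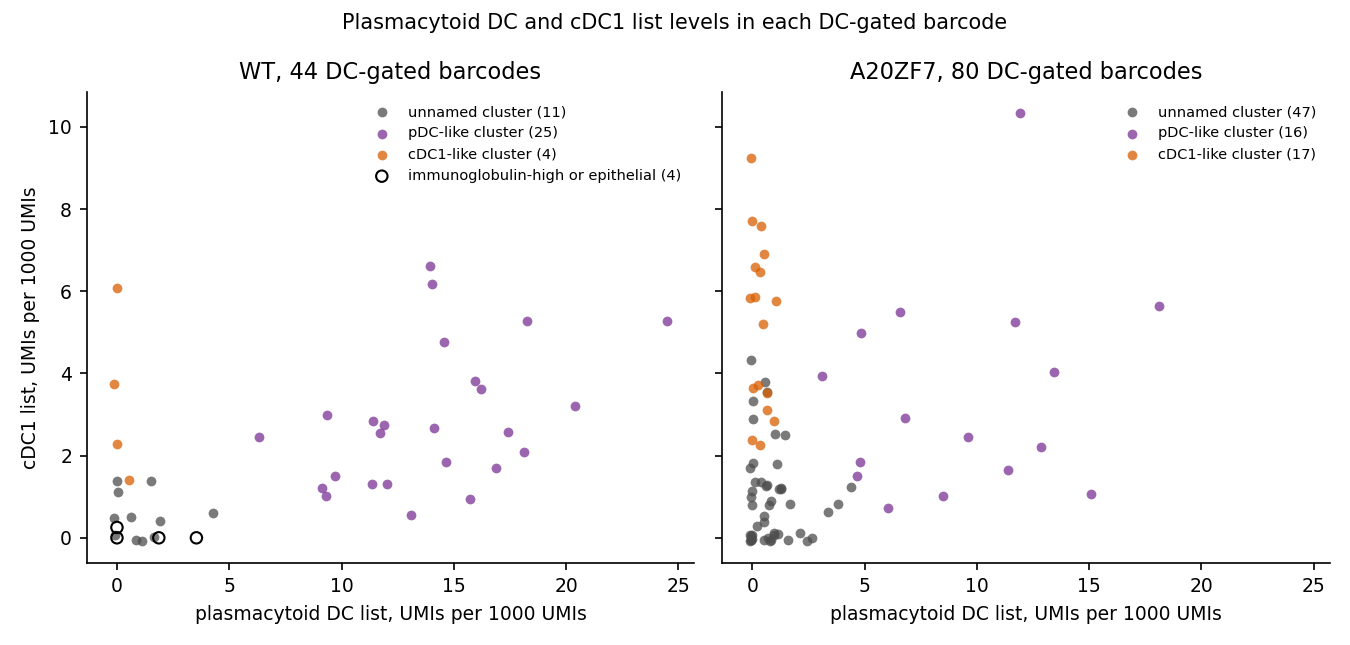
Each point is 1 DC-gated barcode of WT (left) or A20ZF7 (right), with UMIs of the plasmacytoid DC list (x axis) and of the cDC1 list (y axis) per 1000 UMIs of the barcode, shifted slightly at random to separate points. Colors mark the 3 clusters and open circles the 4 WT barcodes with immunoglobulin or epithelial RNA. Most pDC-like barcodes lie to the right in both libraries, with overlap for 2 open circles in WT and in A20ZF7, where the lowest pDC-like barcode has 3.17 and the highest unnamed one 4.5, and the cDC1-like barcodes lie along the left edge.

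The make-up of the gate differed between the libraries. In WT, 27 of 44 barcodes were pDC-like (61.4%, 45.5–75.6), and in A20ZF7 16 of 80 were (20%, 11.9–30.4). These intervals cover the counting of barcodes alone, and barcodes are not replicates of a genotype. Without the 4 WT barcodes the WT share was 25 of 40 (62.5%, 45.8–77.3). With the barcodes of both hashtags left out too, which were 9 of these 25, it was 16 of 29 (55.2%, 35.7–73.6). The cDC1-like cluster held 6 WT barcodes (13.6%, 5.17–27.4), or 4 of 40 without those 4, and 17 A20ZF7 barcodes (21.2%, 12.9–31.8). The unnamed cluster held 11 WT (25%, 13.2–40.3) and 47 A20ZF7 barcodes (58.8%, 47.2–69.6). By WT mouse, pDC-like barcodes were 11 of 15 in mouse 1 and 5 of 13 in mouse 2, so this share also varied within WT. The median pDC-like barcode had 1779 UMIs in WT and 1035 in A20ZF7, and the median class II count, of which the rule asks 10, was 17 and 14. Many pDC-like barcodes thus lay near the class II limit, and some genes that define the cluster also differed between genotypes within it, as described below. The counts describe what the rule admitted and do not measure pDC numbers in the tissue.

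A wider gate bears on this. All filtered barcodes with 2 or more UMIs of *Siglech*, *Klk1* and *Cox6a2*, under the same B cell and T cell limits but without the class II, DC gene, macrophage and stromal limits, numbered 94 in WT (0.424%, 0.343–0.519) and 134 in A20ZF7 (0.350%, 0.294–0.415). The ratio of these shares was 0.825 (0.629–1.09), an interval that includes 1, but this depended on *Klk1*. Of the barcodes, 6 in WT and 23 in A20ZF7 had *Klk1* UMIs and none of *Siglech* and *Cox6a2*, and 8 of these 23 had 3 or more UMIs of the pancreatic enzyme genes *Ctrb1*, *Try4*, *Try5*, *Prss2* and *Clps*, which no WT barcode had. With 2 or more UMIs of *Siglech* and *Cox6a2* alone, the gate held 85 WT barcodes (0.384%, 0.307–0.474) and 86 A20ZF7 barcodes (0.225%, 0.180–0.278), a ratio of 0.586 (0.429–0.8). Both genes were also at a lower level within pDC-like barcodes of A20ZF7, as described below, so that fewer barcodes and fewer UMIs per barcode cannot be told apart here. The DC rule kept 25 of the 94 WT barcodes (26.6%) and 7 of the 134 A20ZF7 barcodes (5.22%). At least 10 class II UMIs were present in 51 and 40 barcodes, and a DC gene UMI in 46 and 29. The class II genes of the rule summed to 6462 CPM (6093–6849) in WT and 6840 CPM (6448–7251) in A20ZF7, while the median depth was 1450 and 1057 UMIs. *Clec9a*, which counts toward the rule, was at 176 CPM (119.3–249) in WT and 72.5 CPM (37.5–127) in A20ZF7. The wider gate with *Klk1* holds RNA of other cells, as *Fabp1* was at 3472 CPM in WT and *Dcn* at 1178 CPM in A20ZF7, and *Ctrb1*, a pancreatic protease gene, had 0 UMIs in WT and 748 in A20ZF7 (4520 CPM). The choice of both wider gates followed from the result above. Barcodes with 1 or more UMI of *Xcr1* and *Clec9a* and no class II limit were counted in the same way. There were 36 WT barcodes (0.163%, 0.114–0.225) and 50 A20ZF7 barcodes (0.131%, 0.0970–0.172), of which 16 and 32 were in the DC gate. *Xcr1* was present in 4 and 19 of them, and of the 16 WT barcodes 14 were pDC-like and 2 cDC1-like, against 13 and 16 of the 32 in A20ZF7, so these barcodes are not cDC1s as a class.

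**Figure D2:**
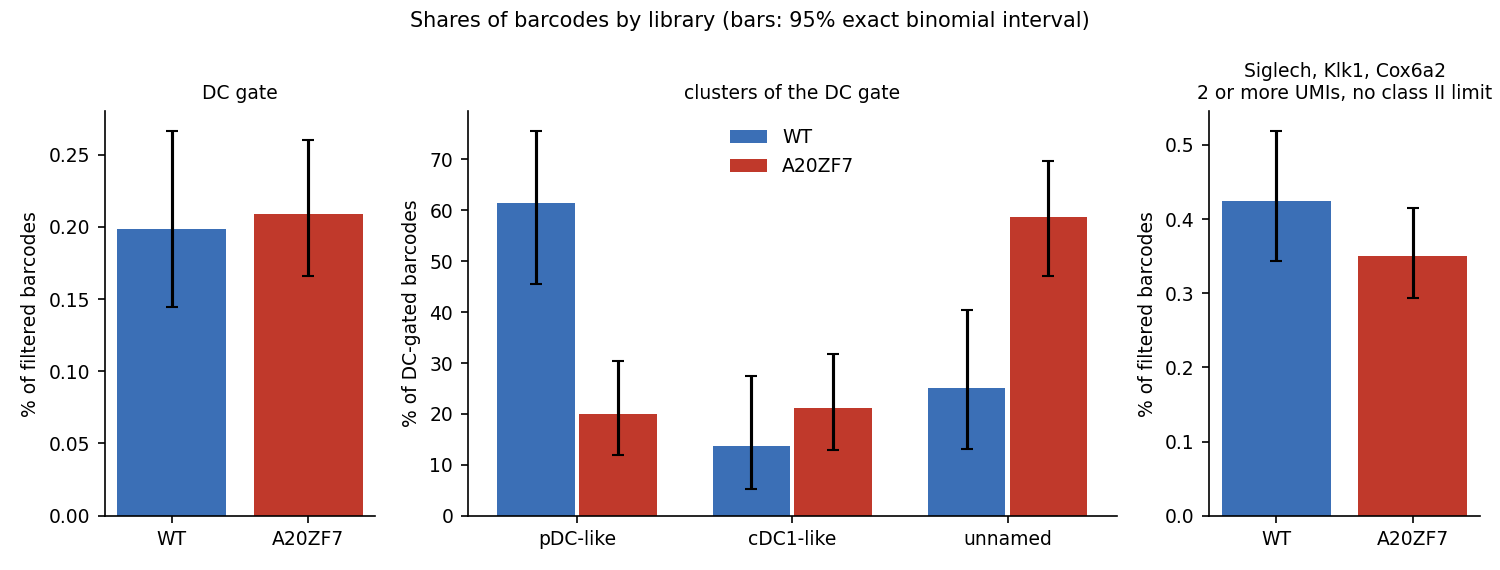
Bars show the DC share of filtered barcodes (left, %), the share of each cluster among DC-gated barcodes (middle, %) and the share of filtered barcodes with 2 or more UMIs of *Siglech*, *Klk1* and *Cox6a2* (right, %), with 95% exact binomial intervals for WT (blue) and A20ZF7 (red). The pDC-like share of the DC gate is 61.4% and 20%, while the wider gate on the right, which includes *Klk1*, gives 0.424% and 0.350%.

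**Figure D3:**
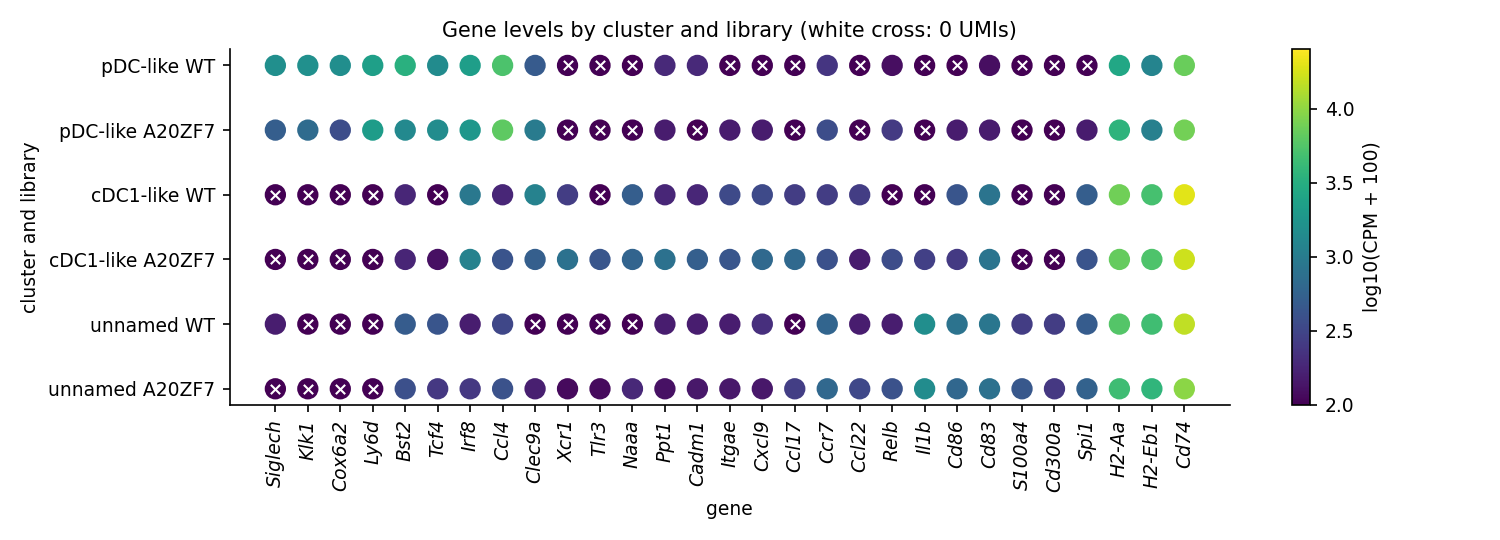
Color gives the level of each gene (x axis) as log10 of CPM plus 100 in the 3 clusters of each library (y axis), without the 4 WT barcodes that went against the label, and a white cross marks 0 UMIs. The pDC genes *Klk1*, *Cox6a2* and *Ly6d* are at 0 in both other clusters of both libraries.

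Surface proteins were a readout that the rule did not use directly. WT cells had been stained with 138 antibodies, each linked to an oligonucleotide that is counted as UMIs. The antibody barcodes, 5′ to 3′ as deposited, are shown for the antibodies that bear on DC identity.

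I-A: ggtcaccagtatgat
BST2: tgtggtagcccttgt
Siglec-H: ccgcacctacattag
CD86: ctggatttgtgtatc
CD11c: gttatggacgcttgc
XCR1: tccattacccacgtt

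The antibody to I-A, an MHC class II molecule, had the highest ratio of the 138 when the mean over DCs was set against the median of the other gates' means, at 8.47, and by medians the ratio was 3.31, or 5.46 without barcodes of both hashtags and 12.3 for mouse 2 alone. The median DC had 6.26 I-A UMIs per 1000 antibody UMIs, against 1.89 in the T cell gate, 1.67 in the ILC gate, 1.84 in the stromal gate, 3.21 in the B cell gate and 40.3 in the macrophage gate, which lay above the DCs. The rule asked for at least 10 class II UMIs in DCs, and the T cell, ILC and stromal gates allowed at most 2, so the contrast with those gates follows in part from the selection. The DC clusters differed among themselves. The median was 39.8 in the unnamed cluster (11 barcodes), 79.5 in the cDC1-like cluster (4 barcodes) and 5.39 in the pDC-like cluster (25 barcodes), with the 4 WT barcodes left out. Above 8.09 per 1000, the 95th percentile of the T cell gate, lay 9 of 11, 4 of 4 and 3 of 25 barcodes, respectively. The order of the clusters was the same for their class II transcripts, with median UMIs of the rule's class II genes of 35, 94 and 18 in the same WT barcodes. Within mouse 1 the I-A medians were 27.3 (3 barcodes), 71.8 (1 barcode) and 6.06 (11 barcodes), and within mouse 2 they were 39.8 (5), 87.2 (3) and 5.15 (5).

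Other antibodies separated the clusters less. BST2 had a median of 2.69 per 1000 on pDC-like barcodes and 1.76 on T cells, and Siglec-H had 4.33 and 3.09. CD86, a ligand of CD28, was at 5.29 on the 4 cDC1-like barcodes and at 1.14 on pDC-like barcodes. CD11c, the product of *Itgax*, was at 0.723 on DCs and 0.656 on T cells. XCR1 was at 7.07 on DCs and 7.18 on T cells, and was at 8.43 on the cDC1-like barcodes. The median DC had 1997 antibody UMIs in all, so that these levels amount to a few UMIs per antibody. Over the DC gate as a whole, CD11c and XCR1 lay close to their levels on T cells, and the cause was not tested.

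**Figure D4:**
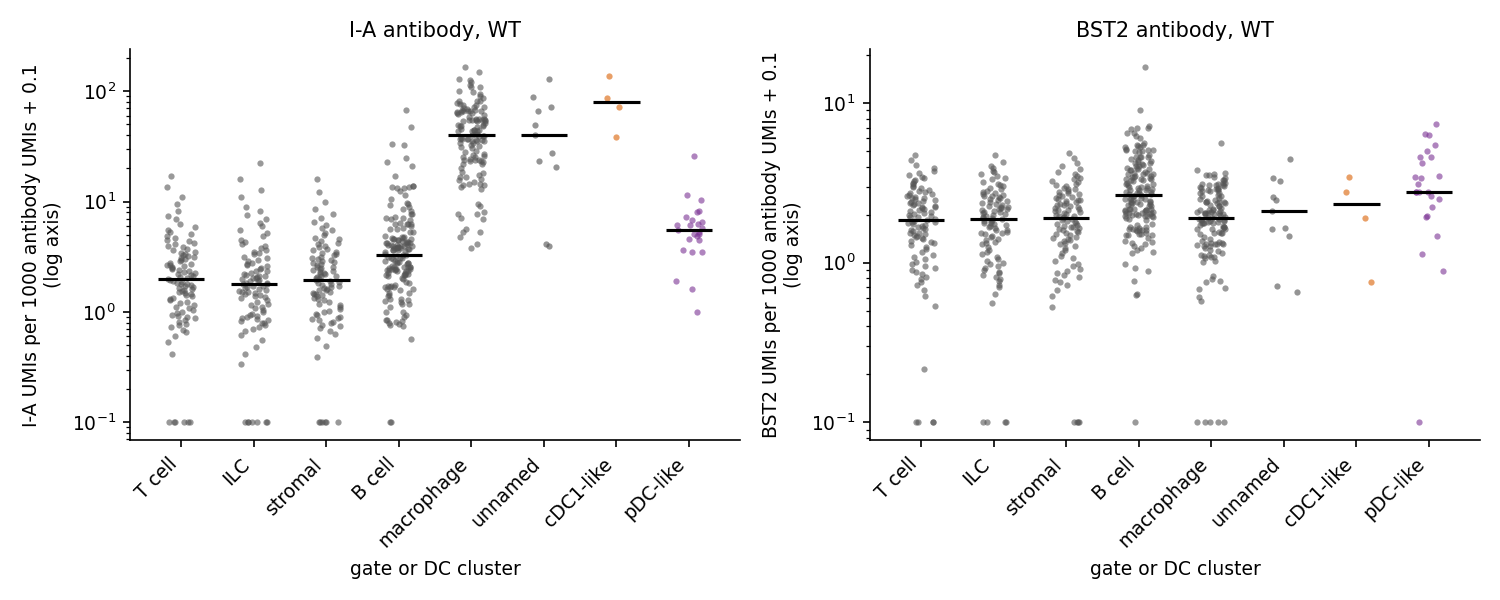
Points show I-A (left) and BST2 (right) UMIs per 1000 antibody UMIs, with 0.1 added, on a log axis for WT barcodes by gate and DC cluster, and lines show medians. For the T cell, ILC and stromal gates the percentiles from 1 to 99 are drawn in place of single barcodes. I-A is high in macrophages, the unnamed cluster and the cDC1-like cluster, and the pDC-like barcodes lie lower, with a median of 5.39.

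The genotypes were then compared gene by gene over the summed UMIs of the gate. A gene was compared where the higher library had at least 20 UMIs and 100 CPM, and was counted where it differed by 2-fold or more. A gene below 20 UMIs in 1 library could thus be compared only if it was higher in the other. For such genes the filter fixed the direction, and the shares over all genes include them. The same holds for genes below the minimum in CPM that is used for both libraries later. Of 1029 genes, 152 (14.8%) were higher in A20ZF7 and 94 (9.14%) were lower, with a median ratio of 1.23 over all of them. Since 20 UMIs are a lower level in the deeper A20ZF7 sum, the same minimum in CPM for both libraries gave 76 higher and 94 lower, and with the 4 WT barcodes also left out the split was 38 (6.1%) against 84 (13.5%) of 623 genes. Under the first rule, which gave 152 and 94, 171 genes were higher and 63 lower without the 13 WT barcodes of 2 hashtags. As a measure of spread, the 2 WT mice, compared under the same minimum in both, differed by 2-fold or more in 16 (6.69%) genes in each direction of 239. With 28077 and 26935 UMIs, 20 UMIs are a higher level in CPM there than in the genotype sums. The shares are thus not on the same footing. The mice also differed in make-up, with 11 of 15 and 5 of 13 barcodes in the pDC-like cluster. In sums over the gate, a change in the share of a DC type and a change in RNA per cell cannot be told apart, so the values over the whole gate stand beside those within clusters. The libraries also list different gene IDs, 33696 in WT and 32285 in A20ZF7, and 1905 of the 31950 shared IDs have another symbol. Their gene annotations thus differ. UMIs under the symbol *Gm42418* were 0% of all UMIs in WT and 3.30% in A20ZF7. The effect of the annotations on the ratios was not tested.

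*Tnfaip3*, which carries the mutation, had 24 UMIs in WT (257 CPM) and 79 in A20ZF7 (624 CPM), a ratio of 2.43 (1.52–4.01). The knock-in alters the protein and does not remove the transcript, so the level does not check the labels. In the WT mice the gene had 1 UMI in mouse 1 and 11 in mouse 2, a ratio of 11.5 (1.67–493), so the mice differed by as much as the genotypes. Within clusters *Tnfaip3* was at 266 and 570 CPM in the pDC-like cluster, a ratio of 2.14 (0.856–5.30), and at 365 and 634 CPM outside it, a ratio of 1.74 (0.912–3.64). Both intervals include 1, but without the WT barcode of most *Tnfaip3* UMIs they did not, at 3.08 (1.13–8.81) and 2.33 (1.12–5.62), and without that of A20ZF7 they did, at 1.66 (0.589–4.42) and 1.57 (0.816–3.30). Without WT barcodes of both hashtags the pDC-like ratio was 3.32 (1.06–12.2), from 5 WT UMIs. Of 19 genes of the A20 and NF-κB list, 12 were compared, and 5 were higher and none lower, with a median ratio of 1.75, beside 14.8% higher and a median of 1.23 over all genes compared. Without the 4 WT barcodes, under the same minimum in both libraries, 2 of 7 were higher, with a median of 1.47, beside 6.1% and 0.987 over the 623 genes. The 5 were *Tnfaip3*, its partner *Tnip1* (75 and 174 CPM), *Relb* (32.1 and 268 CPM), *Traf1* (42.9 and 158 CPM) and *Icam1* (75 and 205 CPM). All but *Tnfaip3* had fewer than 20 WT UMIs and were compared through A20ZF7 alone, so the tally follows in part from the filter. *Nfkbia*, which encodes the inhibitor IκBα, was at 461 and 719 CPM, a ratio of 1.56 (1.07–2.30). The summed list had a ratio of 1.65 (1.43–1.91) over the whole gate, 1.40 (1.04–1.88) in the pDC-like cluster and 1.14 (0.941–1.39) outside it. The interval outside the pDC-like cluster thus includes 1, and there 0 of 2 genes compared were higher, with a median ratio of 0.904, beside 1.83% and 0.926 over the 219 genes compared. A few barcodes decided on which side of 1 these intervals lay. Without WT barcodes of both hashtags the ratio outside the pDC-like cluster was 1.25 (1.01–1.55). Without the WT barcode of most UMIs of the list the ratio was 1.31 (1.06–1.63) outside the pDC-like cluster and 1.57 (1.16–2.13) in it, and without the A20ZF7 barcode of most UMIs these were 1.11 (0.917–1.36) and 1.30 (0.93–1.79). In the cDC1-like cluster the 1 gene compared, *Bcl2a1b*, was lower, with a ratio of 0.320 (0.164–0.627), beside 8.18% lower and 4.55% higher of 110 genes. A single WT barcode held 14 of its 20 WT UMIs, and without it the ratio was 0.876 (0.339–2.66), while without the A20ZF7 barcode of most UMIs it was 0.271 (0.131–0.55). The list was also higher in A20ZF7 in the other gates, at 799 and 1533 CPM in B cells, 1868 and 3035 CPM in stromal cells, 3607 and 4149 CPM in macrophages, 4393 and 4809 CPM in T cells and 5055 and 5177 CPM in ILCs. *Tnfaip3* itself was at 278 and 603 CPM in the stromal gate and at 100 and 261 CPM in the B cell gate, but at 1242 and 1160 CPM in the T cell gate. The part of these library-wide differences in the DC values was not tested. *Relb*, a subunit of noncanonical NF-κB that also marks mature DCs, had 1 UMI in WT and 31 in A20ZF7 outside the pDC-like cluster, a ratio of 8.71 (1.45–355), and in all other filtered barcodes its ratio was 1.66.

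Genes of DC subsets are given over the gate first. Of 11 pDC genes, 9 were compared, and 7 were lower in A20ZF7 and none higher, with a median ratio of 0.237, beside 9.14% lower and a median of 1.23 over all genes compared, and without the 4 WT barcodes, under the same minimum in both libraries, 8 of 9 were lower, beside 13.5%. *Siglech* had 65 UMIs in WT and 8 in A20ZF7 (697 and 63.2 CPM), and *Bst2* had 158 and 47 (1693 and 371 CPM). Of 12 cDC1 genes, 6 were compared and 4 were higher, beside 14.8% of all genes. These were *Xcr1* (21.4 and 213 CPM), which the rule used and whose 2 WT UMIs came from 1 barcode, *Wdfy4* (118 and 403 CPM), *Naaa* (53.6 and 190 CPM) and *Ppt1* (64.3 and 229 CPM). *Clec9a* (321 and 292 CPM), which the rule used too, was among the 6. The tally thus follows in part from the selection, and the higher genes that the rule did not use were *Wdfy4*, *Naaa* and *Ppt1*. All 4 higher genes had fewer than 20 WT UMIs, so the filter also fixed their direction. Without the 4 WT barcodes, under the same minimum in both libraries, 3 cDC1 genes were compared, 1 was higher and 1 lower, and the median ratio was 0.733, beside 6.1% higher and a median of 0.987 over the 623 genes. That median is the ratio of *Clec9a*, a gene of the rule, so it describes the gate only. *Irf8*, which both pDCs and cDC1s express, was at 1125 CPM in WT and 655 CPM in A20ZF7. Of 16 cDC2 genes, 3 were compared, and *S100a4* (32.1 and 190 CPM) was the 1 that was higher, beside 14.8% of all genes. Without the 4 WT barcodes, under the same minimum, no cDC2 gene could be compared. *Cd209a*, a C-type lectin, had 18 UMIs in WT and 2 in A20ZF7, below the limit for comparison.

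Of 14 genes of mature and migratory DCs, 6 were compared and 4 were higher in A20ZF7 over the whole gate, with a median ratio of 2.89, beside 14.8% and 1.23 over all genes compared, and without the 4 WT barcodes, under the same minimum in both libraries, 2 of 4 were, beside 6.1% and a median of 0.987. *Samsn1*, the gene of the list with the highest WT level, had 41 UMIs in WT and 34 in A20ZF7 (439 and 268 CPM), a ratio of 0.611 (0.376–0.987). *Ccr7*, which the rule used, was at 182 CPM in WT and 418 CPM in A20ZF7. It is 1 of the 4 higher genes, so that tally and its median follow in part from the selection. All 4 had fewer than 20 WT UMIs, so the filter fixed their direction too. *Ccl17*, a ligand of CCR4, had 2 UMIs in WT and 33 in A20ZF7 (21.4 and 261 CPM), a ratio of 12.2 (3.11–105), and its A20ZF7 UMIs came from 6 barcodes. *Ccl5* was at 118 and 411 CPM. *Ccl5* was also higher in the A20ZF7 B cell gate (84.5 and 736 CPM) and stromal gate (592 and 2136 CPM), and stood at 4366 and 4538 CPM in the T cell gate. The summed list was higher in A20ZF7 in every other gate, at 894 and 1585 CPM in macrophages, 271 and 1130 CPM in B cells, 1538 and 2383 CPM in ILCs, 1107 and 2833 CPM in stromal cells and 5164 and 5386 CPM in T cells. The part of this in the DC values was not tested. Outside the pDC-like cluster the summed list had a ratio of 1.32 (0.996–1.77), an interval that includes 1, and it was 1.68 (1.22–2.35) without the WT barcode of most UMIs and 1.23 (0.928–1.65) without that of A20ZF7. *Ccr7* of the rule is in this sum. There *Ccr7* was at 365 and 447 CPM, a ratio of 1.23 (0.628–2.62), and 7 of its 11 WT UMIs came from 1 barcode, without which it was 3.22 (1.18–12.3), while without the A20ZF7 barcode of most UMIs it was 1.09 (0.552–2.35).

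Of 12 genes of class II presentation, 7 were compared, 3 of them genes of the rule, and none of the 4 others (*H2-Eb1*, *H2-DMa*, *Ctss* and *Ifi30*) differed by 2-fold, beside 14.8% higher and 9.14% lower of all genes. *H2-Aa* had 312 UMIs in WT and 632 in A20ZF7, and *H2-Eb1*, which the rule did not use, had 197 and 472 (2111 and 3727 CPM), a ratio of 1.77 (1.49–2.10). Outside the pDC-like cluster *H2-Eb1* was at 4676 and 4221 CPM, a ratio of 0.903 (0.746–1.10). In the unnamed cluster, where 140 genes were compared and 2 (1.43%) were higher and 3 (2.14%) were lower by 2-fold, it was at 4553 and 3645 CPM, a ratio of 0.801 (0.622–1.04), or 0.761 (0.589–0.991) without the A20ZF7 barcode of most UMIs and 0.851 (0.647–1.13) without that of WT. The summed class II list is given as a description only, since *H2-Aa*, *H2-Ab1* and *Cd74* of the rule are in it, and outside the pDC-like cluster it was at 36078 CPM in WT and 28593 CPM in A20ZF7. Of 12 class I genes, 9 were compared, and *Nlrc5*, a transactivator of class I genes, was the 1 that differed, at 42.9 and 158 CPM, which is no larger a share than the 14.8% of all genes that were higher, and without the 4 WT barcodes, under the same minimum, none of 7 class I genes differed by 2-fold. The summed class I list had a ratio of 1.11 over the gate and 1.14 (0.978–1.34) outside the pDC-like cluster, or there 1.24 (1.05–1.47) without the WT barcode of most UMIs and 1.12 (0.96–1.32) without that of A20ZF7. In the cDC1-like cluster, where WT had 4 barcodes, it was 1.42 (1.09–1.88). It was 1.38 (1.003–1.93) there without the WT barcode of most UMIs and 1.35 (1.04–1.79) without that of A20ZF7. In the unnamed cluster the ratio was 1.01 (0.830–1.22) and in the pDC-like cluster 1.12 (0.934–1.34).

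Costimulatory and cytokine genes could be compared for few members. *Cd83*, which stabilizes class II on the surface, had 24 UMIs in WT and 77 in A20ZF7, a ratio of 2.36 (1.48–3.91), and was the 1 of 3 costimulation genes compared that differed by 2-fold, beside 14.8% of all genes higher. Without the 4 WT barcodes, under the same minimum in both libraries, none of 3 did, beside 6.1% higher and 13.5% lower. Against WT mouse 2 alone the *Cd83* ratio was 0.963, and outside the pDC-like cluster it was 0.928 (0.576–1.55), or 1.07 (0.643–1.88) without the WT barcode of most UMIs and 0.852 (0.525–1.43) without that of A20ZF7. *Cd86* was at 182 and 340 CPM over the gate and at 564 and 391 CPM outside the pDC-like cluster. *Il1b*, the cytokine of the list with the highest level and the only 1 of its 15 genes that could be compared, had 25 UMIs in WT (268 CPM) and 100 in A20ZF7 (790 CPM), a ratio of 2.95 (1.89–4.77). The WT UMIs came from 4 barcodes and the A20ZF7 UMIs from 32, and all WT and 93 of the A20ZF7 UMIs were in the unnamed cluster. Within that cluster the levels were 1388 and 1340 CPM, a ratio of 0.965 (0.615–1.57). Outside the pDC-like cluster as a whole the *Il1b* ratio was 1.12 (0.719–1.82). A single WT barcode held 12 of the 25 WT UMIs, and without it these ratios were 1.64 (0.916–3.20) and 2.01 (1.13–3.91), while without the A20ZF7 barcode of most UMIs they were 0.836 (0.527–1.37) and 0.975 (0.618–1.59). With at least 2 UMIs of DC genes per barcode, the ratio over the gate turned to 0.86. *Il12b* (0 and 7 UMIs), *Il6* (3 and 2) and *Il23a* (0 and 0) were too few to compare. *Il10* had 0 and 4 UMIs. Genes of retinoic acid and TGF-β activation, such as *Aldh1a2* (4 and 3 UMIs), and of pattern recognition, such as *Tlr3* (0 and 14 UMIs), had no member that could be compared.

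Chemokine genes divided. Of 12, 5 were compared, 4 were higher and 1 was lower, beside 14.8% and 9.14% of all genes. Without the 4 WT barcodes, under the same minimum in both libraries, 3 were compared, 2 were higher and 1 was lower, beside 6.1% and 13.5%. Besides *Ccl17* and *Ccl5*, *Cxcl9* (53.6 and 197 CPM) and *Cxcl16* (96.4 and 284 CPM) were higher. All 4 had fewer than 20 UMIs in the WT gate, so the filter fixed their direction there. *Ccl4*, an abundant transcript of pDC-like barcodes, was lower over the gate, with 242 UMIs in WT and 154 in A20ZF7 and a ratio of 0.469 (0.381–0.576). Within the pDC-like cluster *Ccl4* was at 5209 and 6265 CPM, a ratio of 1.2 (0.958–1.5). This interval includes 1, and the lower level over the gate was not seen there. The ratio there was 1.36 (1.07–1.71) without the WT barcode of most *Ccl4* UMIs and 0.99 (0.771–1.26) without that of A20ZF7. Outside that cluster *Ccl4* had a ratio of 1.85 (0.719–6.08). The summed chemokine list had a ratio of 1.67 (1.18–2.42) outside it, where none of its genes was compared, and 1.16 (0.934–1.43) within it. Outside, the list was at 1.85 (1.27–2.76) without the WT barcode of most UMIs and 1.53 (1.08–2.22) without that of A20ZF7. It was also higher in A20ZF7 in every other gate but the T cell gate (5547 and 5222 CPM). The part of this in the DC values was not tested. Of 12 migration and homing receptor genes, 5 were compared and *Ccr7*, which the rule used, was the only 1 that differed by 2-fold, beside 14.8% of all genes. Without the 4 WT barcodes, under the same minimum, 5 were compared, and *Ccr9*, a gut-homing receptor that pDCs express, was the only 1 past 2-fold, at 412 and 190 CPM and a ratio of 0.460, beside 13.5% of genes lower. Of 18 interferon-stimulated genes, 17 of which matched, 2 were compared over the gate and neither differed by 2-fold. Outside the pDC-like cluster the summed list was at 1691 and 960 CPM, a ratio of 0.567 (0.402–0.81). A single WT barcode of the cDC1-like cluster held 17 of the 51 WT UMIs, and without it the ratio was 0.771 (0.519–1.17), an interval that includes 1, while without the A20ZF7 barcode of most UMIs it was 0.545 (0.384–0.781). In the pDC-like cluster the ratio was 1.21 (0.751–1.91).

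**Figure D5:**
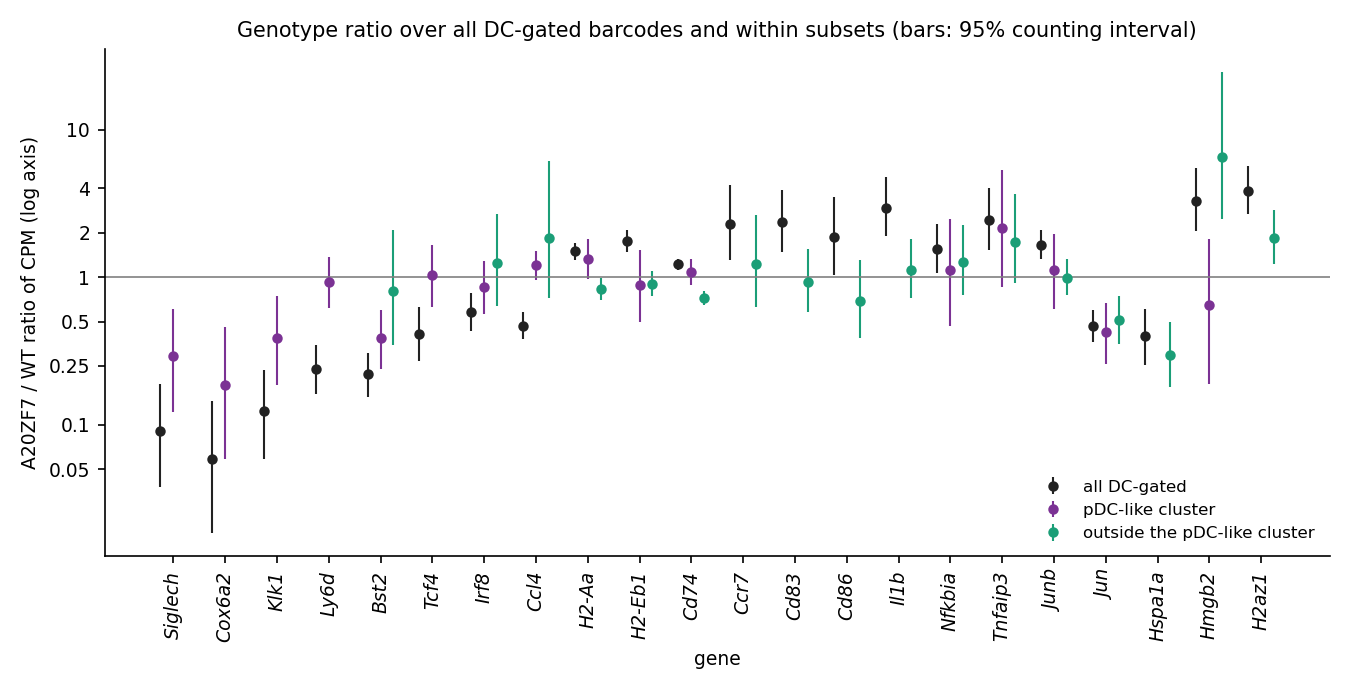
Points give the A20ZF7 to WT ratio of CPM (log axis) for named genes (x axis) over all DC-gated barcodes (black, with the 4 WT barcodes that went against the label), within the pDC-like cluster (purple) and outside it (green), both without those 4, with 95% counting intervals. Points are drawn for genes with at least 20 UMIs in the 2 libraries together and UMIs in both. *Cd83*, *Il1b* and *H2-Eb1* lie above 1 over the whole gate and near 1 outside the pDC-like cluster, while *Hmgb2* lies above 1 in both.

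Genes of the cell cycle were higher in A20ZF7 DCs, and a few barcodes held most of their UMIs. Of 12, 6 were compared and all 6 were higher over the gate, with a median ratio of 4.13, beside 14.8% and 1.23 over all genes compared, and without the 4 WT barcodes, under the same minimum in both libraries, 4 of 4 were, with a median of 2.90, beside 6.1% and 0.987. *H2az1*, a histone variant gene, had 36 UMIs in WT (386 CPM) and 188 in A20ZF7 (1484 CPM), a ratio of 3.85 (2.68–5.66). *Mki67*, a proliferation marker, had 0 UMIs in WT and 20 in A20ZF7, at least 4.91-fold higher against the floor of 3 UMIs for the WT gate. *Stmn1*, a microtubule regulator, had 0 and 22 UMIs, at least 5.40-fold higher. Both genes were compared through their A20ZF7 UMIs alone, so the filter fixed their direction, and the 4 of 4 do not include them. Outside the pDC-like cluster the floor of 3 UMIs was 99.5 CPM in WT, above the 32.1 CPM of the gate, so bounds there would be smaller. *Tubb5* (118 and 521 CPM), *Tuba1b* (118 and 395 CPM) and *Hmgb2* (236 and 774 CPM) completed the 6. *Tubb5* and *Tuba1b* also had fewer than 20 UMIs in the WT gate, so the filter fixed their direction as well. Outside the pDC-like cluster the summed list was at 1426 CPM (1032–1921) in WT and 4444 CPM (4054–4861) in A20ZF7, a ratio of 3.12 (2.28–4.36), and 2.94 (2.13–4.17) without WT barcodes of both hashtags. *Hmgb2* was at 4 and 93 UMIs there, a ratio of 6.53 (2.47–24.5), the largest of the 219 genes that met the same minimum in both libraries, which was 663 CPM there. In the unnamed cluster the list had a ratio of 3.02 (2.01–4.74) and in the cDC1-like cluster 3.31 (2.04–5.71), while in the pDC-like cluster it was 0.946 (0.505–1.70). By single genes, 1 of 2 compared was higher by 2-fold outside the pDC-like cluster (1.83% of all genes), 1 of 1 in the cDC1-like cluster (4.55%) and 0 of 1 in the unnamed cluster (1.43%). The UMIs were unevenly spread. In the unnamed cluster the median barcode had 3 cell cycle UMIs in both genotypes, and 9 A20ZF7 barcodes of 10 or more held 181 of 291 UMIs. In the cDC1-like cluster the medians were 3 in WT and 4 in A20ZF7, and 5 A20ZF7 barcodes of 10 or more held 143 of 186 UMIs. In WT, 1 barcode outside the pDC-like cluster reached 10. Outside that cluster the ratio was 3.70 (2.57–5.50) without the WT barcode of most UMIs and 2.93 (2.14–4.10) without that of A20ZF7, and in the cDC1-like cluster these were 6.35 (2.86–17.5) and 2.87 (1.75–4.97). The WT side rests on 11 unnamed and 4 cDC1-like barcodes. The same list was also higher in A20ZF7 in the other gates, at 1933 and 3264 CPM in T cells, 1316 and 1931 CPM in ILCs, 1195 and 1700 CPM in macrophages, 993 and 1651 CPM in stromal cells and 279 and 807 CPM in B cells. The summed lymphocyte lists are given beside this, and no gene of either was compared within the clusters. The T cell list outside the pDC-like cluster was at 232 and 606 CPM, a ratio of 2.61 (1.2–6.75), and the innate lymphocyte list at 962 and 1854 CPM, a ratio of 1.93 (1.30–2.95), or 3.38 (2.03–6.02) without the WT barcode of most UMIs and 1.78 (1.2–2.74) without that of A20ZF7. In the pDC-like cluster, where the interval of the cell cycle list includes 1, these ratios were 1.61 (1.10–2.35) and 1.84 (1.22–2.77), and 1.91 (1.28–2.84) and 2.05 (1.34–3.14) without the WT barcode of most UMIs, but 1.44 (0.937–2.18) and 1.48 (0.935–2.32) without that of A20ZF7. The part of RNA from other cells, dividing lymphocytes included, in the DC values was not tested.

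Within the pDC-like cluster, 154 genes were compared, and 1 (0.649%) was higher in A20ZF7, the immunoglobulin gene *Igkc*, and 11 (7.14%) were lower. The summed pDC list, whose genes also set the cluster apart, was at 13897 CPM (12830–15028) in WT and 8232 CPM (7002–9616) in A20ZF7, a ratio of 0.592 (0.495–0.706). Of its genes 6 were compared and 4 were lower. *Cox6a2*, an isoform of a cytochrome oxidase subunit, had 63 UMIs in WT and 5 in A20ZF7 (1396 and 259 CPM), *Siglech* 64 and 8 (1418 and 414 CPM), *Klk1* 66 and 11 (1463 and 570 CPM) and *Bst2* 145 and 24 (3214 and 1243 CPM). Without the 9 WT barcodes of both hashtags, which left 16 in each library, the list had a ratio of 0.561 (0.465–0.675), *Cox6a2* of 0.216 (0.066–0.553), *Siglech* of 0.257 (0.105–0.549), *Klk1* of 0.426 (0.197–0.848) and *Bst2* of 0.366 (0.224–0.577). The immediate early and heat shock list was lower too in this cluster, with 541 UMIs in WT and 149 in A20ZF7, a ratio of 0.643 (0.533–0.773), and of 0.664 (0.544–0.807) without those 9 barcodes, while the T cell and innate lymphocyte lists were higher, as given above. *Jun* was at 2682 and 1139 CPM. The part of these in the pDC values was not tested. *Ly6d* (2128 and 1967 CPM), *Tcf4* (1308 and 1346 CPM) and *Irf8* (2061 and 1760 CPM) gave ratios of 0.925 (0.618–1.36), 1.03 (0.623–1.66) and 0.854 (0.559–1.28), respectively. *Fth1*, the ferritin heavy chain, was at 7802 and 2899 CPM, and *Ctsl*, which encodes cathepsin L, at 1175 and 311 CPM. In all other filtered barcodes *Fth1* had a ratio of 0.634 and *Ctsl* of 0.828. In the wider gate of 94 and 134 barcodes, which includes those with pancreatic RNA, 191 (11.5%) of 1660 genes were higher and 129 (7.77%) were lower. Levels of *Siglech*, *Klk1* and *Cox6a2* are not compared there, since UMIs of these genes chose the barcodes. *Bst2*, which did not, was at 2164 and 1480 CPM, a ratio of 0.684 (0.58–0.805). Between the 2 WT mice, *Siglech* was at 855 and 891 CPM and *Bst2* at 2351 and 1448 CPM over the DC gate.

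Outside the pDC-like cluster, with 15 WT and 64 A20ZF7 barcodes, 219 genes were compared, and 4 (1.83%) were higher and 12 (5.48%) were lower in A20ZF7. After *Hmgb2*, the largest ratios were those of *Ptprc* (265 and 699 CPM), which encodes CD45, *S100a6* (431 and 988 CPM) and *Lcp1* (431 and 978 CPM), an actin-bundling protein of leukocytes. Without the WT barcode of most UMIs the *S100a6* ratio moved from 2.29 to 4.67 (2.08–13), and without that of A20ZF7 to 1.93 (1.07–3.77). In all other filtered barcodes *Ptprc* had a ratio of 1.58, *S100a6* of 1.19 and *Lcp1* of 1.65. Outside the pDC-like cluster the monocyte and neutrophil list was at 796 and 1248 CPM, a ratio of 1.57 (1.01–2.53). It was 2.19 (1.30–3.95) without the WT barcode of most UMIs and 1.46 (0.940–2.37) without that of A20ZF7. The part of monocyte or neutrophil RNA in these values was not tested. Of the immediate early and heat shock list, 9 genes were compared there and 3 were lower, with a median ratio of 0.813, beside 5.48% and 0.926. *Egr1* was at 730 and 196 CPM, *Hspa1a* at 1061 and 317 CPM, a ratio of 0.299 (0.179–0.5), and *Atf3* at 928 and 298 CPM. The macrophage list moved the same way there, at 1525 and 810.6 CPM, a ratio of 0.531 (0.368–0.777), and in the macrophage gate *Atf3* was at 1019 and 761 CPM and *Egr1* at 826 and 512 CPM. The part of macrophage RNA in these values was not tested. Over the whole gate 14 of the 14 genes of that list were compared, and 4 were lower and none higher, beside 9.14% of all genes lower (without the 4 WT barcodes, under the same minimum, also 4 of 14, with a median ratio of 0.673, beside 13.5% and 0.987), with *Jun* at 1843 and 861 CPM and *Junb* at 1232 and 2045 CPM. Such genes are known to respond to tissue digestion. In all other filtered barcodes *Hspa1a* had a ratio of 0.559, *Egr1* of 0.541 and *Atf3* of 0.497, so these 3 were lower in the A20ZF7 library as a whole, and the part of this in the DC values was not tested.

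By size alone, the 10 highest ratios over the gate were those of *Nedd4*, *Ccl17*, *Gzma*, *Ifitm1*, *Serpinb9*, *Xcr1*, *Relb*, *Plet1*, *Satb1* and *Pdia4*. *Ifitm1*, an interferon-induced transmembrane protein gene, had 0 UMIs in WT and 43 in A20ZF7, at least 10.6-fold higher against the floor, and all 43 were in the unnamed cluster. Against the floor of the 11 WT barcodes of that cluster the bound was 3.72-fold, and in all other filtered barcodes the ratio was 2.03. *Gzma*, the gene of a granzyme of cytotoxic lymphocytes, had 2 UMIs in WT and 33 in A20ZF7, and its ratio in all other barcodes was 3.11. *Plet1*, a surface glycoprotein gene, had 2 and 21 UMIs. The 10 lowest were *Rbp2*, *Apoa1*, *Fabp1*, *Spink1*, *Fabp2*, *Apoc2*, *Pigr*, *Apoa4*, *Prap1* and *Mzb1*. Of these, 9 are epithelial or enterocyte genes and *Mzb1* is a plasma cell gene, and nearly all of their WT UMIs came from the 4 barcodes that went against the label, such as 257 of 260 for *Fabp1*. In all other filtered barcodes *Fabp1* was at 1993 CPM in WT and 35.1 CPM in A20ZF7.

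The 2 WT mice gave the only measure of spread between animals, with 15 and 13 DC barcodes and 28077 and 26935 UMIs. *Cst3*, the cystatin C gene that is abundant in conventional DCs, was at 3277 CPM in mouse 1 and 8465 CPM in mouse 2, a ratio of 2.58 (2.02–3.33). *Cd74* was at 10258 and 13737 CPM, and *H2-Aa* at 4096 and 5606 CPM, both genes of the rule. *Il1b* was at 427 and 408 CPM and *Ccl4* at 2671 and 2636 CPM, ratios whose intervals include 1. Animals of the A20ZF7 library could not be told apart here, because its antibody data were not used.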

How the data were processed

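The deposited values are UMI counts, which the authors made with Cell Ranger (header version 8.0.0 for gene expression and 7.1.0 for antibodies) without filtering of barcodes. The submitters' processing notes name mm10, Cell Ranger 7.1 and Seurat 4.3. Genes were matched by ID, 31950 of which both libraries list. The antibody files deposited for A20ZF7 were identical to those of WT (3 of 3) and were not used. CPM are UMIs over the summed UMIs of shared IDs. Intervals are exact (Poisson, binomial or conditional). Clusters used Seurat 5.3.0 in R 4.3.3 (2000 variable genes, 20 components, resolution 0.8), and took a name where a list's mean log2 fold was the highest of 4 DC lists and at least 1, a rule set after the data were seen. Hashtags were called by HTODemux (quantile 0.99). Doublets were left in: Scrublet (scanpy 1.11.5) marked 1 WT and 0 A20ZF7 barcodes by its own threshold, which did not work, and 375 and 571 at a score of 0.25, of which 0 were DCs. Genes were named as list members of the highest level or past 2-fold, the 10 largest and smallest ratios and the 15 leading genes, leaving out mitochondrial, ribosomal, immunoglobulin, receptor, sex-linked, Gm and Rik genes. Genes named for their ratio within clusters, between WT mice or in the wider gates were chosen after their values were seen, as was the removal of single barcodes and of barcodes with 2 hashtags within clusters. Of 354 list genes 352 matched. The members and lists were chosen with earlier results of these data known. Counting was checked on simulated data. Alternatives changed the gate, depth, filters, scaling, clustering and WT mice.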

Additional observations from a re-analysis of the deposited data

How the results depend on the processing

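No paired analysis was possible because the mice were pooled and the genotypes share no pairing. With at least 1000 UMIs per barcode the DC share was 0.411% in WT and 0.368% in A20ZF7, and the pDC-like share of A20ZF7 DCs was 10.6%. With at least 20 class II UMIs the DC shares were 0.0948% and 0.125%, with 85 genes higher and 36 lower. With at least 5, the A20ZF7 share was 0.275% and its pDC-like share 30.5%. With at least 2 UMIs of DC genes the shares were 0.0858% and 0.128%, with 76 genes higher and 35 lower, and *Il1b* turned to a ratio of 0.860. Both stricter gates gave 1 cluster. Without *Ccr7* in the rule, the cluster named cDC1-like held 38.5% of WT and 80.0% of A20ZF7 DCs. With barcodes that held any UMI of the T cell, ILC and B cell gate genes left out of both DCs and all barcodes, the shares were 0.319% (26 of 8143) and 0.540% (44 of 8149). Against WT mouse 1 alone 33 genes were lower, and against mouse 2 alone 20, with *Cd83* at 0.963. Genes higher and lower numbered 487 and 246 at 10 UMIs with no CPM minimum, 316 and 150 at 1.5-fold, 66 and 53 at 3-fold, and 17 and 22 with each barcode thinned to 500 UMIs. Alternatives chosen after the data were seen gave 76 higher under the same CPM minimum, 1 and 11 in the pDC-like cluster, where *Tcf4* (1.03), *Ccl4* (1.2) and *Hmgb2* (0.649, and 0.629 also without WT barcodes of 2 hashtags) turned, and 4 and 12 outside it, where *Ccl4* (1.85) and *Cd83* (0.928) turned. *Ccl4* also turned in both without WT barcodes of 2 hashtags, at 1.27 (0.989–1.63) and 4.07 (1.04–35.0). Turned means throughout only that the ratio lay on the other side of 1. Of these ratios in and outside the pDC-like cluster, all but that of 4.07 have intervals that include 1. Genes that had differed by under 2-fold over the gate also had ratios on the other side of 1 outside the pDC-like cluster. Examples were *H2-Eb1* at 0.903 (0.746–1.10), *Cd86* at 0.694 (0.387–1.30) and *Irf8* at 1.25 (0.642–2.67), whose intervals include 1. Between WT mice, 37 and 34 genes differed at 1.5-fold, 7 and 8 at 3-fold, and 60 and 59 at 10 UMIs. The I-A median of DCs, 3.31 times that of the other gates, was 12.3 times for mouse 2 alone and 5.46 without barcodes of 2 hashtags. Of the summary values the other 114 moved by less than their error or by under 1.5 times. Of the values of single genes in this tally 127 moved by more, 723 did not and 10, all given above, turned. The tally does not count *H2-Eb1*, *Cd86* and *Irf8* as turned. No cDC1-like cluster was found at resolution 0.4, with 30 components, without barcodes of 2 or more innate lymphocyte UMIs, or with macrophage genes at 1 UMI at most, so values of that cluster rest on the gate and settings used. The causes were not tested. Depth limits all of this: 44 and 80 barcodes cannot show differences in genes of a few UMIs.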
